A study of Mus musculus with 6 samples.

Results

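Chemokines are small secreted proteins that attract leukocytes by binding receptors of the G protein-coupled family, and 10 of them that are known from the intestine were followed here after deletion of Fitm2 in mice: Cxcl10, Cxcl9, Ccl2, Cxcl1, Ccl20, Cxcl16, Cxcl12, Cxcl13, Ccl25 and Ccl28. These 10 genes were taken from 13042 genes with a signal above the intensity filter. Their 20 probe sets carry no other gene symbol, and each gene is represented by its brightest probe set, judged by mean log2 over the 6 arrays. Levels are intensities on a linear scale and differences are KO minus L/L on the log2 scale, so that 1 unit is a doubling. A level cannot be set against that of another gene, because probes differ in how brightly they bind.

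Fitm2 encodes FIT2, a membrane protein of the endoplasmic reticulum required for lipid droplet formation. KO mice carried L/L alleles together with ROSA26CreERT2, a Cre recombinase that is switched on by tamoxifen and driven from a locus active in most tissues, so that deletion was not restricted to the epithelium. L/L mice carried the same alleles without the Cre, so that loss of Fitm2 and presence of active Cre cannot be told apart. Both genotypes received intraperitoneal tamoxifen (100 µg/g) at days 1, 2 and 3. Animals were killed at day 2, 3 or 5, and their small intestine was flushed and used whole. Age and sex are not given, nor whether mice of day 2 had the later doses. In order of day, KO pools held 7, 6 and 7 mice and L/L pools held 6, 6 and 8 mice. Each pool gave 1 array. No day therefore has a replicate of either genotype. The p-values rest only on how the difference varied between the 3 days and on a variance prior drawn from all genes tested. In the test of its change with day, that variation is the departure from a straight line.

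The Fitm2 probe set gave 123, 127 and 120 in KO on days 2, 3 and 5, against 193, 223 and 211 in L/L, without overlap between the genotypes (log2 -0.76, adjusted p = 0.125). Enterocyte markers were bright on all 6 arrays. Alpi, the intestinal alkaline phosphatase gene, lay between 13572 and 14221 in KO and between 12065 and 14506 in L/L. The median intensity of an array lay between 57.7 and 59.7. In the test over the 3 days, 3 of 13042 genes passed, which is 0.023%, and none of the 10 chemokines was among them. By the same limma fit, 4 of the 10 (Cxcl10, Cxcl12, Ccl25 and Ccl2) had an unadjusted p under 0.05, as had 12.3% of all genes. In whole tissue, fewer cells of a type and less RNA per cell cannot be told apart.

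Chemokines of the CXC and CC families differ in the spacing of their first cysteines and in the leukocytes they call. Cxcl9 and Cxcl10 are induced by interferon and act on Cxcr3 of activated T and NK cells, while Ccl2 draws monocytes and Cxcl1 neutrophils. In the small intestine, Ccl25 from epithelial cells guides gut-homing T cells and IgA-secreting plasma cells that carry Ccr9, and stromal Cxcl12 and Cxcl13 hold and arrange lymphocytes within the tissue.

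Promoters are shown for Cxcl10 and Cxcl9, which are neighbouring interferon-inducible genes with Art3 between them on chromosome 5. They are shown as context, and no relation between promoter letters and array values was tested. Each sequence is the strand of the gene over the 250 bases before the start site in RefSeq's GRCm38.p6 annotation, and capitals mark motif matches.
Cxcl10 (chr5:92348890-92349139, minus strand): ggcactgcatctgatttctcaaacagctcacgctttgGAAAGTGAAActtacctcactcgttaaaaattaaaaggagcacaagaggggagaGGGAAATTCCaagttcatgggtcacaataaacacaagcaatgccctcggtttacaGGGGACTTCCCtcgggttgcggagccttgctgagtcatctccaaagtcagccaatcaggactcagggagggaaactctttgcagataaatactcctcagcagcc
Cxcl9 (chr5:92328080-92328329, minus strand): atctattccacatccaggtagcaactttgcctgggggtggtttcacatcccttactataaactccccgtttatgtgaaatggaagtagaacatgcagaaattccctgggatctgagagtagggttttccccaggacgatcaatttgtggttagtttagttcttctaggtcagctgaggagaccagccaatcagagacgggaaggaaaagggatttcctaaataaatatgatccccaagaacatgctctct
The motifs searched on both strands were the core of the interferon-stimulated response element, the kappaB consensus and the gamma-activated sequence (TTCNNNGAA). The Cxcl10 window held the interferon-stimulated core at -213. It also held kappaB matches at -159 and, overlapping each other, at -104 and -103. The Cxcl9 window held none of the motifs. Of 32851 promoter windows, each with 250 bases before and 50 after the start site, 3.44% held the interferon-stimulated core, 8.46% a kappaB match and 8.3% the gamma-activated sequence. The table matched 8 of the 10 members, not Cxcl16 or Ccl2. Among the others, Cxcl1 had overlapping kappaB matches at -71 and -70, Ccl20 had a kappaB match at -80, and none held the gamma-activated sequence. A match describes these letters and is not evidence of binding.

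Cxcl10 was higher in KO on all 3 days, most on day 3. Its intensities on days 2, 3 and 5 were 197, 203 and 128 in KO pools, against 158, 79.7 and 67.4 in L/L pools. KO lay above L/L within each day, but the genotypes overlapped, since KO day 5 was below L/L day 2. The log2 differences were 0.32, 1.35 and 0.92, which is 1.25-fold, 2.55-fold and 1.89-fold. The mean was 0.86 ± 0.52 (SD, n = 3 days; SE 0.20) and did not pass (adjusted p = 0.381). The difference did not change with day beyond its error either (0.14 per day, adjusted p = 0.669). Within L/L, Cxcl10 on day 5 was 2.34-fold lower than on day 2. Within KO the log2 difference was 0.05 between days 3 and 2 and -0.62 between days 5 and 2.

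Cxcl9, which acts on the same receptor, did not separate the genotypes. It measured 87.5, 111 and 68.8 in KO, against 68.8, 111 and 93.1 in L/L. KO was the higher pool on day 2, level with L/L on day 3 and the lower pool on day 5, with log2 differences of 0.35, -0.01 and -0.44. The mean was -0.03 ± 0.39 (SD, n = 3 days; SE 0.15; adjusted p = 0.935). The change of -0.25 per day did not pass (adjusted p = 0.0814). Whether Cxcl10 and Cxcl9 differ from each other in their response was not tested. Cxcl11, of the same CXC family, gave 147, 154 and 204 in KO and 144, 156 and 151 in L/L, so that only day 5 stood apart (log2 0.43). The Cxcr3 probe set lay between 44.6 and 56.0 in KO and between 53.4 and 57.5 in L/L.

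**Figure D1:**
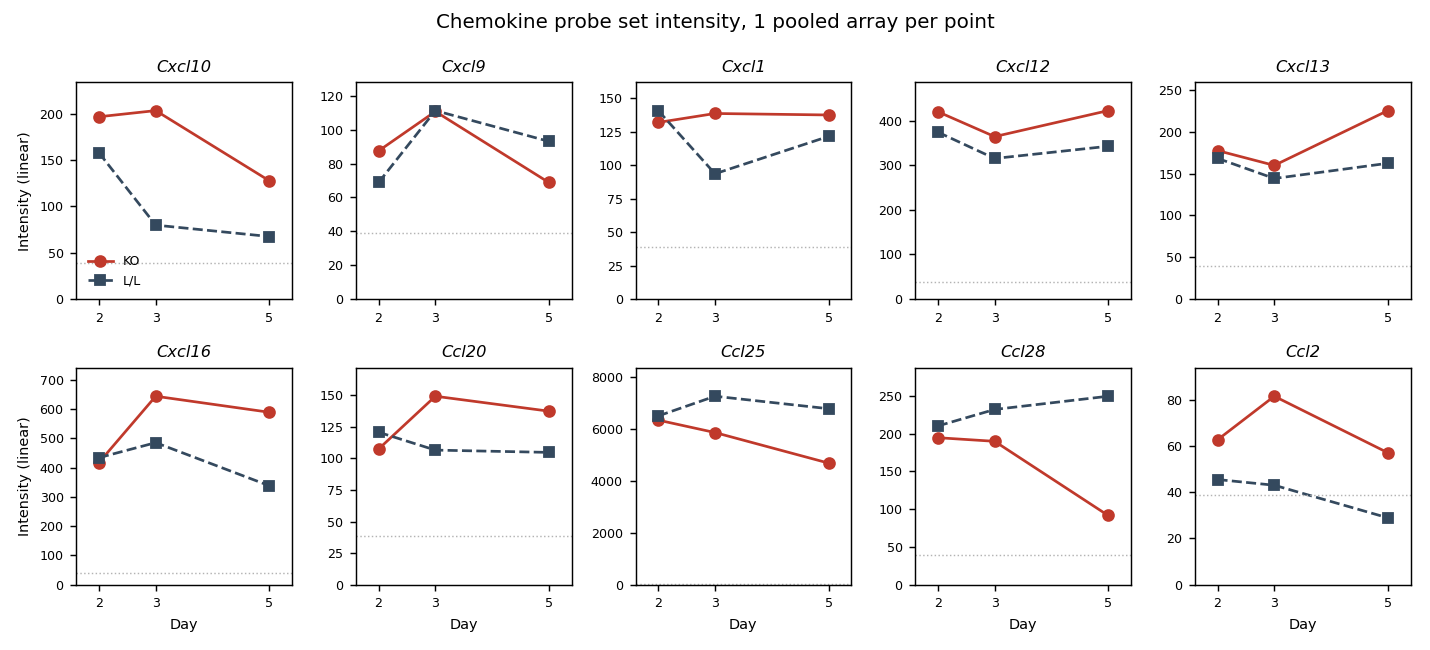
Intensity (linear axis from 0) of the brightest probe set of each of the 10 chemokines by day, with 1 pooled array per point, KO as circles on solid lines, L/L as squares on dashed lines, and the filter threshold of 38.9 as a dotted line. Ccl2 lies higher in every KO pool than in any L/L pool, Ccl25 and Ccl28 lie lower, and the other 7 genes overlap.

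Ccl2, the main attractant of monocytes, was the chemokine whose KO pools all lay above all L/L pools. It measured 62.6, 81.5 and 57.1 in KO, against 45.5, 43.0 and 28.9 in L/L. The lowest KO pool exceeded the highest L/L pool, as for 7.48% of all genes. Log2 differences were 0.46, 0.92 and 0.98, and the mean of 0.79 ± 0.28 (SD, n = 3 days; SE 0.12), a 1.73-fold difference, did not pass (adjusted p = 0.331). The L/L day 5 value was below the filter threshold of 38.9. With that value raised to the threshold the day 5 difference was 0.55 and the mean 0.65. Ccr2, the receptor of Ccl2, lay in the opposite order, at 43.2, 38.6 and 41.2 in KO and 45.9, 44.8 and 48.2 in L/L (log2 -0.18, adjusted p = 0.399). These values lie near the filter, with KO day 3 below it. All KO pools of Ccr2 lay below all L/L pools, as for 5.66% of all genes.

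Of 8 macrophage and dendritic cell markers, all measured, 5 were higher in KO on every day, against 22.1% of all genes, and 5 had all KO pools above all L/L pools, against 7.48%. The other 3, Adgre1, Cd68 and Cd14, were lower in KO on day 2 (log2 -0.05, -0.10 and -0.12) and higher on days 3 and 5. The summed intensity of the 8 markers was 3302, 3776 and 4934 in KO, against 3095, 2805 and 2358 in L/L. Sums here and below are weighted to the brightest probe sets of a list and are not a cell count. None of the 8 passed over the 3 days, but the differences of Lyz2 and Cd68 grew with day (0.43 and 0.35 per day, adjusted p = 0.0373 and 0.0454). Lyz2, a lysozyme of myeloid cells, measured 1145, 1315 and 2300 in KO and 1062, 892 and 869 in L/L. C1qa, a complement gene of tissue macrophages, measured 492, 632 and 609 in KO and 447, 398 and 290 in L/L. The part of these cells in the Ccl2 values was not tested.

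Cxcl1, a neutrophil attractant, was nearly level in KO, at 132, 138 and 137, and varied more in L/L, at 141, 93.5 and 121. KO exceeded L/L on days 3 and 5 but not on day 2, and the genotypes overlapped. The mean log2 difference was 0.22 ± 0.33 (SD, n = 3 days; SE 0.13; adjusted p = 0.497). A second probe set gave 110, 129 and 161 in KO and 116, 116 and 118 in L/L, with its largest difference on day 5 (log2 0.45) where the brightest gave it on day 3 (0.57). The dimmest, below the filter on average, gave 25.4, 40.4 and 65.3 in KO and 31.4, 30.4 and 30.8 in L/L, and so also parted most on day 5. Of the 6 neutrophil markers, 4 were below the filter and the others had no probe set of their own, so no neutrophil level can be given. Cxcr2, the receptor of Cxcl1, was among the dim ones.

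Ccl20, made by the epithelium over lymphoid follicles and recognised by Ccr6, measured 108, 149 and 138 in KO, against 121, 107 and 105 in L/L. Its KO pools were higher on days 3 and 5 and lower on day 2, where the difference was -0.17. The mean was 0.24 ± 0.35 (SD, n = 3 days; SE 0.14; adjusted p = 0.486). Ccr6 differed by -0.08 (adjusted p = 0.627).

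Cxcl16, a membrane-bound chemokine that binds Cxcr6 and also takes up oxidised lipoprotein, had a difference that widened by day without passing the main test. It measured 417, 643 and 589 in KO, against 434, 485 and 338 in L/L. The pools were alike on day 2 and furthest apart on day 5, with log2 differences of -0.06, 0.41 and 0.80. The change of 0.27 per day had an adjusted p of 0.0847 with the brightest probe set. With the mean of its probe sets it was 0.29 per day and passed (adjusted p = 0.0460). It also passed with an offset added before log2 (adjusted p = 0.0296) and with a trend in the variance prior (adjusted p = 0.0336). Under the other alternatives it did not pass, with adjusted p between 0.0503 (filter at the 60th percentile) and 0.227 (no intensity filter). The other probe set gave 274, 396 and 483 in KO and 254, 369 and 242 in L/L, with nearly all of its difference on day 5 (log2 0.99). Cxcr6 was below the filter.

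**Figure D2:**
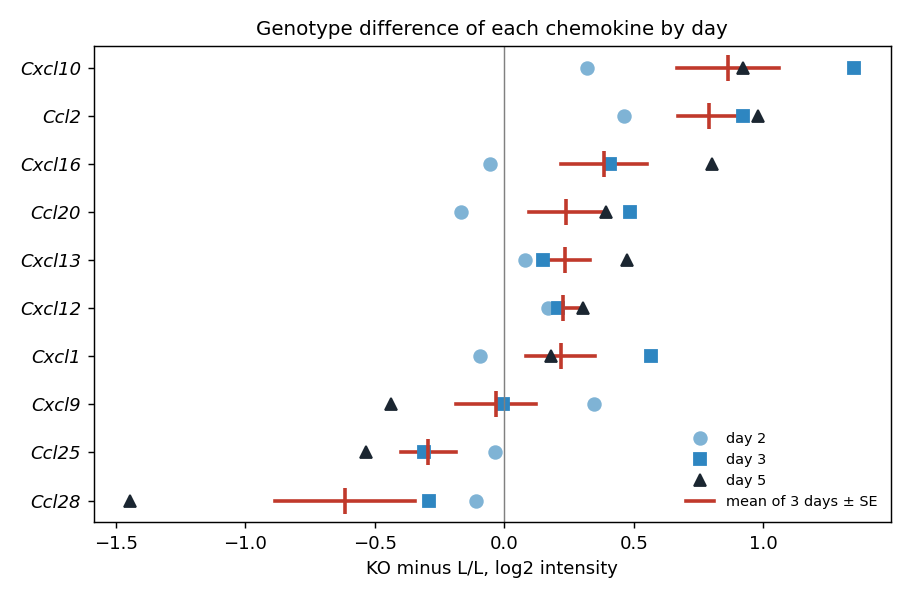
KO minus L/L (log2 intensity) of each chemokine on days 2, 3 and 5, with the mean of the 3 days as a red tick and its SE from the fit as a red bar. Cxcl10 and Ccl2 have the highest means, 0.86 and 0.79, and Ccl28 the lowest, -0.62, with its day 5 point at -1.45.

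Among the stromal chemokines, the brightest Cxcl12 probe set had a small difference that varied little between days. This ligand of Cxcr4, which retains lymphocytes and progenitors, measured 420, 364 and 423 in KO, against 374, 315 and 343 in L/L. KO was higher each day although KO day 3 was below L/L day 2. The mean of 0.23 ± 0.07 (SD, n = 3 days; SE 0.06) did not pass (adjusted p = 0.381). A dimmer probe set, at 97.9, 84.4 and 85.1 in KO and 83.2, 70.9 and 74.4 in L/L, gave the same mean of 0.23. The dimmest, below the filter, gave 19.2, 18.5 and 16.1 in KO and 18.4, 17.5 and 21.5 in L/L, with a day 5 difference of -0.41. With the mean of all 3 probe sets, the difference was 0.12 over the 3 days and 0.03 on day 5.

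Cxcl13 organises B cell follicles through Cxcr5. It measured 178, 160 and 225 in KO and 168, 144 and 162 in L/L, with KO higher on each day and the widest gap on day 5. The mean was 0.23 ± 0.21 (SD, n = 3 days; SE 0.10; adjusted p = 0.410). The other probe set gave 147, 114 and 178 in KO and 119, 93.2 and 99.1 in L/L, where the day 5 difference was 0.84 against 0.47 with the brightest. Cxcr4 and Cxcr5 were below the filter. Endothelial markers were higher in KO on all 3 days in 4 of 4 genes (median of the mean differences 0.30), against 22.1% of all genes. Their sums lay between 1067 and 1310 in KO and between 860 and 989 in L/L. Fibroblast markers were higher on all 3 days in 1 of 4 (median 0.15), close to that share. Their sums lay between 8338 and 12812 in KO and between 8068 and 9382 in L/L. B and plasma cell markers were higher on all 3 days in 1 of 4 measured, also close to that share. Their sums lay between 658 and 1316 in KO and between 664 and 1169 in L/L. Of these, Jchain alone gave between 465 and 1134 in KO and between 469 and 986 in L/L. Smooth muscle markers were higher on all 3 days in 0 of 4. Their sums were 15520, 15005 and 22938 in KO and 15567, 15937 and 20372 in L/L. The part of these cells in the Cxcl12 and Cxcl13 values was not tested.

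By their brightest probe sets, both mucosal homing chemokines were lower in KO on each day, but neither passed over the 3 days. In none of their other probe sets was KO lower on all 3 days. Ccl25 measured 6345, 5865 and 4688 in KO, against 6507, 7266 and 6786 in L/L. All KO pools lay below all L/L pools, as for 5.66% of genes, with log2 differences of -0.04, -0.31 and -0.53. The mean was -0.29 ± 0.25 (SD, n = 3 days; SE 0.11; adjusted p = 0.399). The change of -0.16 per day had an adjusted p of 0.176. It passed only with a trend in the variance prior (adjusted p = 0.0494). A far dimmer probe set gave 95.7, 103 and 86.5 in KO and 95.2, 110 and 106 in L/L. Ccr9, the receptor of Ccl25, measured 54.9, 54.5 and 53.9 in KO and 48.6, 65.9 and 77.5 in L/L (log2 -0.21, adjusted p = 0.530).

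Ccl28 was the only chemokine of the 10 whose genotype difference passed the test of change with day, by its brightest probe set. This mucosal epithelial ligand of Ccr10, known for drawing IgA plasmablasts, measured 194, 190 and 91.5 in KO, against 210, 232 and 249 in L/L. With that probe set all KO pools lay below all L/L pools, as for 5.66% of all genes, and KO on day 5 stood far below the rest. The log2 differences were -0.11, -0.29 and -1.45, the last a 2.72-fold lower level. The difference fell by 0.46 per day (SE 0.06, adjusted p = 0.0454). That test passed in 160 genes, or 1.23%, and in 1 of the 10 chemokines. At an unadjusted p under 0.05 it held 5 of the 10 (Cxcl9, Cxcl13, Cxcl16, Ccl25 and Ccl28) and 18.4% of all genes. The mean over the 3 days, -0.62 ± 0.72 (SD, n = 3 days; SE 0.27), did not pass (adjusted p = 0.414).

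The other probe sets of Ccl28 gave different profiles. The brighter of them measured 93.0, 106 and 76.3 in KO and 91.5, 111 and 76.8 in L/L, so that the genotypes were alike on all days (-0.01 per day, adjusted p = 0.976). The dimmer measured 49.3, 69.6 and 25.8 in KO and 47.7, 64.3 and 20.5 in L/L, with KO higher by 0.33 on day 5. With the mean of all 3 probe sets the change was -0.12 per day and did not pass (adjusted p = 0.198). The call also did not hold without the intensity filter (adjusted p = 0.169) or with day coded as a rank (adjusted p = 0.0755). Ccr10 differed by -0.06 (adjusted p = 0.719). Epithelial markers did not share one direction: the 5 enterocyte markers measured summed to between 90407 and 96085 in KO and between 89836 and 95940 in L/L, whereas 4 of 4 Paneth markers were higher in every KO pool than in any L/L pool (7.48% of all genes), with sums between 27318 and 38950 in KO and between 22531 and 24017 in L/L. Of 4 goblet markers, 4 were higher in KO on all 3 days (22.1% of all genes), with sums between 42190 and 44693 in KO and between 36336 and 40020 in L/L. The part of epithelial cell composition in the Ccl25 and Ccl28 values was not tested.

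**Figure D3:**
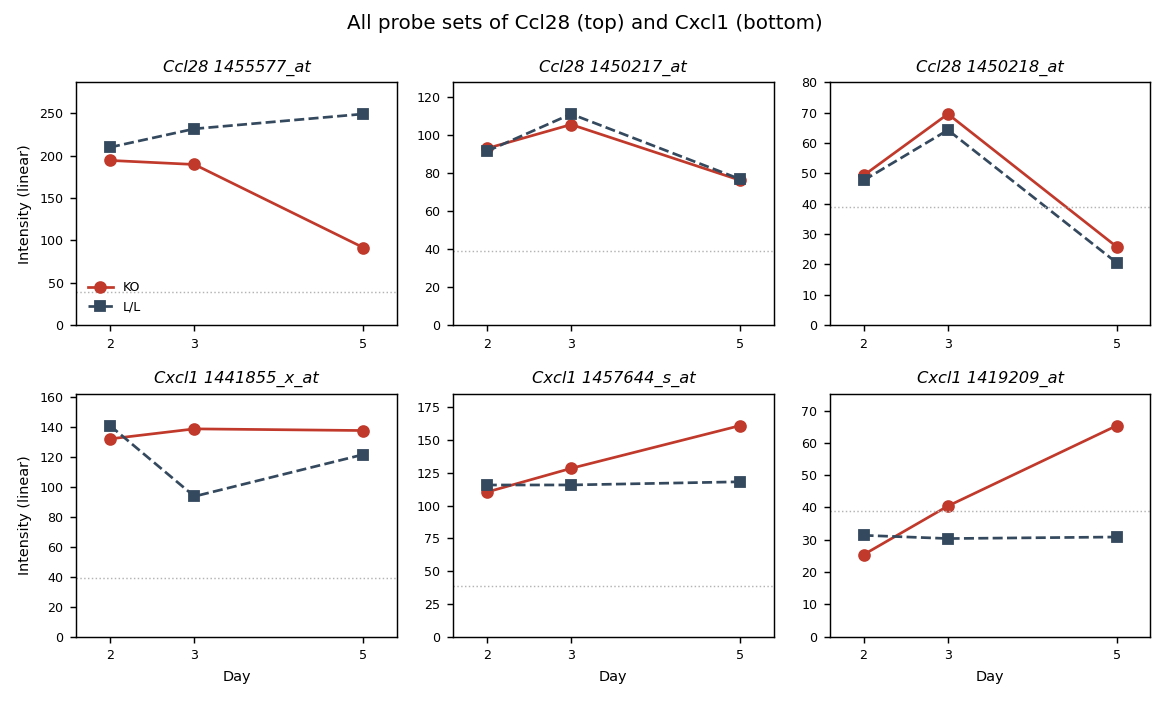
Intensity (linear axis from 0) by day for every probe set of Ccl28 (top row) and Cxcl1 (bottom row), with KO as circles on solid lines, L/L as squares on dashed lines and the filter threshold as a dotted line. The genotypes part on day 5 in the brightest Ccl28 probe set, at 91.5 in KO and 249 in L/L, but not in the next, at 76.3 in KO and 76.8 in L/L.

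By day, the 10 chemokines spread out. At 1.5-fold or more in either direction, 0 of 10 differed on day 2, when 0.537% of all genes did, 2 on day 3 (Cxcl10 and Ccl2, against 1.6% of all genes) and 4 on day 5 (Cxcl10, Cxcl16, Ccl28 and Ccl2, against 8.29%). Ccl2 left the day 5 count when its L/L value was raised to the threshold (log2 0.55), and Ccl28 is in it by its brightest probe set only. These single days have no test. By their brightest probe sets, Cxcl10, Cxcl12, Cxcl13 and Ccl2 were higher in KO on each of the 3 days, as were 22.1% of genes. Ccl25 and Ccl28 were lower by theirs, as were 17.4%. In order of day, the median difference of the 10 was 0.02, 0.31 and 0.35, and that of all genes 0.01, -0.01 and 0.02.

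**Figure D4:**
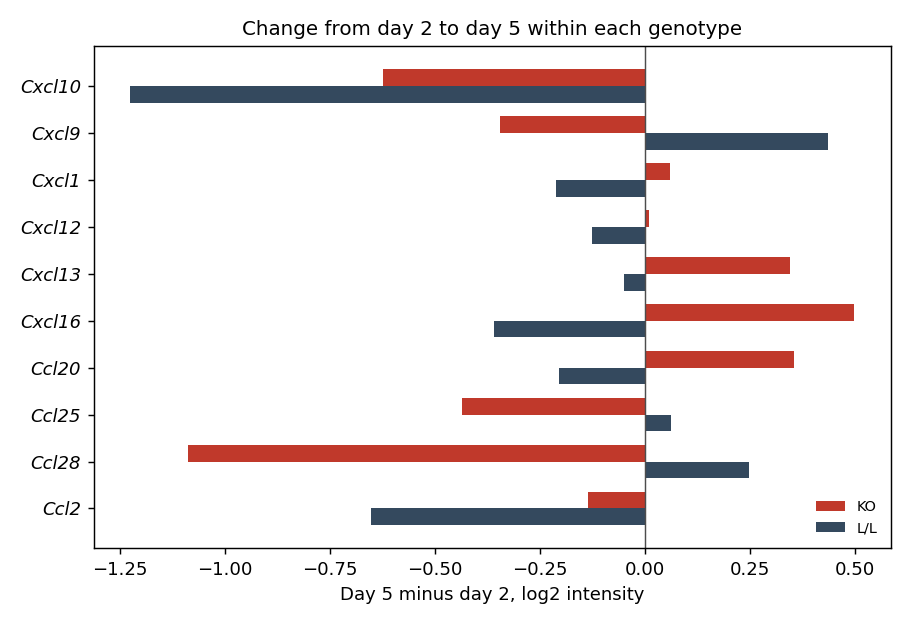
Day 5 minus day 2 (log2 intensity) within each genotype for the 10 chemokines, with KO and L/L as separate bars from 0 and 1 pool behind each day. Ccl28 stands at -1.09 in KO and 0.25 in L/L, and Cxcl10 at -0.62 in KO and -1.23 in L/L.

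Within L/L, where Fitm2 was intact, 3 chemokines differed by 1.5-fold or more between days 3 and 2, against 1.62% of genes. Cxcl10 and Cxcl1 were 1.98-fold and 1.5-fold lower on day 3, and Cxcl9 was 1.62-fold higher. Between days 5 and 2, Cxcl10 and Ccl2 were 2.34-fold and 1.57-fold lower, against 2.92% of genes at 1.5-fold in either direction. The Ccl2 value of L/L day 5 was below the filter, and raised to the threshold its log2 difference was -0.22, which is under 1.5-fold. These L/L differences have no replicate and no test. A second probe set of Cxcl1 gave no difference between L/L days 3 and 2 (log2 0.00036).

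Of 27 other chemokine ligands, 16 were measured above the filter. No ligand passed over the 3 days. By limma, 4 had an unadjusted p under 0.05, all 4 higher in KO, against 12.3% of all genes in either direction. Of the 16, 6 were higher on all 3 days (22.1% of all genes) and 1 lower (17.4%), with a median mean difference of 0.14. Ccl12, a monocyte attractant that shares Ccr2 with Ccl2, was the ligand whose difference grew with day (0.42 per day, adjusted p = 0.0480). It measured 64.8, 66.4 and 74.8 in KO, against 59.3, 37.3 and 27.3 in L/L, where the day 3 and day 5 values were below the filter. Like Ccl2, it had all KO pools above all L/L pools, as for 7.48% of all genes. Ccl11, the eosinophil attractant eotaxin, measured 177, 165 and 137 in KO and 138, 87.4 and 110 in L/L (log2 0.53, adjusted p = 0.381). Ccl8, a monocyte attractant, measured 72.3, 111 and 107 in KO and 57.9, 84.0 and 59.8 in L/L (log2 0.52, adjusted p = 0.381). Ccl6, a macrophage chemokine of rodents, differed by 0.43 (adjusted p = 0.394).

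Of 22 chemokine receptors, 10 were above the filter. None passed over the 3 days. By limma, 1 of them had an unadjusted p under 0.05, lower in KO, close to the 12.3% of all genes in either direction. Their median mean difference was -0.07. Ccr1, a receptor of myeloid cells, measured 90.0, 103 and 135 in KO, against 100, 89.8 and 63.4 in L/L, and its difference grew by 0.42 per day (adjusted p = 0.0392). Ackr4, a scavenger that removes Ccl25 and other ligands, measured 175, 174 and 142 in KO and 163, 182 and 329 in L/L, so that its difference fell by 0.46 per day (adjusted p = 0.0454). A second Ackr4 probe set had a day 5 difference of -0.90 and the dimmest one of 0.24. Ackr3, which scavenges Cxcl12, measured 138, 132 and 170 in KO and 130, 121 and 126 in L/L (log2 0.22, adjusted p = 0.410).

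**Figure D5:**
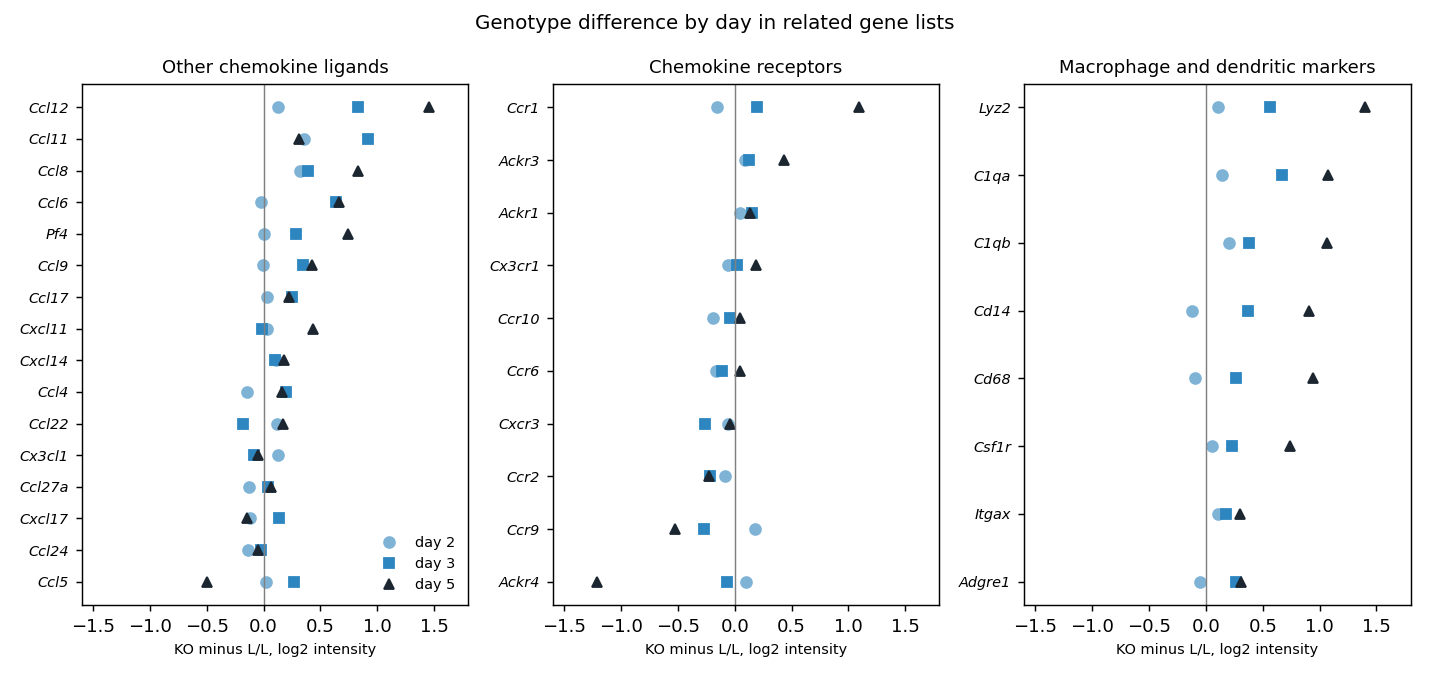
KO minus L/L (log2 intensity) on days 2, 3 and 5 for each measured gene of 3 lists, the other chemokine ligands, the chemokine receptors and the macrophage and dendritic markers, ordered by mean. On day 5 Ccl12 stands at 1.46, Ccr1 at 1.09, Ackr4 at -1.21 and Lyz2 at 1.40.

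Interferon and NF-kB induce several of these chemokines. In an interferon gamma list, 23 of 26 genes were measured, 17 were higher in KO on all 3 days and 1 was lower, and 9 had all KO pools above all L/L pools, against 22.1%, 17.4% and 7.48% of all genes. Their median mean difference was 0.24, against 0.01 over all genes. None of the 23 passed over the 3 days, and 11 had an unadjusted p under 0.05 in limma, all higher in KO, against 12.3% of all genes in either direction. Iigp1, an interferon-inducible GTPase, measured 448, 376 and 372 in KO and 279, 199 and 207 in L/L (log2 0.82, adjusted p = 0.125). Igtp, of the same class, measured 1200, 1396 and 957 in KO, against 512, 879 and 761 in L/L (log2 0.74, adjusted p = 0.381). Irgm2 differed by 0.59 (adjusted p = 0.335) and Nlrc5, an activator of MHC class I genes, by 0.57 (adjusted p = 0.379). Ifng itself was below the filter on every array, at most 9.29 in KO and 8.88 in L/L. Markers of T and NK cells summed to 1902, 2130 and 1520 in KO and 1961, 2090 and 1572 in L/L.

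In an NF-kB list, 17 of 20 genes were measured, with 7 higher in KO on all days (22.1% of all genes), 3 lower (17.4%) and a median mean difference of 0.10. None passed over the 3 days, and 6 had an unadjusted p under 0.05 in limma, all higher in KO, against 12.3% of all genes in either direction. Vcam1, the adhesion molecule that leukocytes grip on endothelium, measured 170, 212 and 270 in KO, against 155, 140 and 120 in L/L, and its difference grew by 0.34 per day (adjusted p = 0.0485). Icam1, of the same function, measured 81.4, 103 and 138 in KO and 64.5, 84.4 and 71.7 in L/L (log2 0.52, adjusted p = 0.381). Cebpd differed by 0.49 (adjusted p = 0.381) and Lcn2, an antimicrobial iron-siderophore binder, by 0.46 (adjusted p = 0.301). A dimmer Cebpd probe set differed by 0.09, with KO lower on day 2 (log2 -0.39). Tnf was level, between 55.8 and 59.3 in KO and between 54.4 and 57.0 in L/L.

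Other genes followed the profiles of the chemokines that varied most. Likeness was the root mean square difference between log2 profiles centred on their own mean over the 6 arrays, which share pools and day, so that it describes these arrays only. Nearest to Cxcl10 were Gm4951 (0.18), Cpn1 (0.27) and Ccl12 (0.30). Nearest to the brightest Ccl28 probe set, whose day 5 difference the others did not share, were Bcl2l15 (0.050), Fgfr3 (0.079) and Myb (0.10). Fgfr3, a growth factor receptor, measured 269, 246 and 124 in KO and 313, 313 and 312 in L/L. Its dimmer probe set had a day 5 difference of -0.29, against -1.33 with the brightest. Myb, a transcription factor of crypt progenitors, measured 681, 693 and 380 in KO and 714, 928 and 887 in L/L, and its difference fell by 0.39 per day (adjusted p = 0.0404). Nearest to Ccl2 were Tmed6 (0.15), Fst (0.15) and Apoe (0.16). Apoe, a lipid carrier that macrophages also make, measured 735, 933 and 885 in KO and 685, 557 and 379 in L/L.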

How the data were processed

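Biotin-labelled cRNA was made from 250 ng of total RNA per pool and hybridised to 3' expression arrays, per the labels' protocols. The deposited table gives 1 intensity per probe set and array on a linear scale. Partek and RMA were used, per the submitters' processing notes, with no versions given. The tests had assumed log2 values, so log2 was taken first. Of 45101 probe sets, 34945 had 1 gene symbol in the platform annotation, 932 had several and were left out, and 9160 were unlisted. The brightest probe set per gene was used, and genes were kept above the 40th percentile (an intensity of 38.9), which left 13042 of 18193. The test of KO minus L/L used limma 3.58.1 under R 4.3.3 (day as a factor, all 6 arrays, two-sided) and its change with day as genotype times centred day. These fits have 2 and 1 residual degrees of freedom, plus priors of 3.03 and 4.76. Benjamini-Hochberg adjustment covered all genes kept, at 0.05. Both fits were tested on simulated data. No other normalization was applied. The number of arrays limits the precision.

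The members and lists were chosen with earlier results of these data known, so list counts set beside shares of all genes are descriptions and not tests. Named were all members, up to 4 genes of each list with the largest mean difference, the 3 genes nearest in profile to each of the 3 most variable members, and list genes that passed a test. The receptors of single members, Cxcl11 and Tnf were chosen after their values were seen. The labels do not tie pools to litters or batches. The 7 other probe sets of members above the filter were fitted as an alternative added after seeing the data, and 3 dim ones were not fitted.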

Additional observations from a re-analysis of the deposited data

Results flagged for a closer look

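For 8 named genes the genotype difference differed between days by the test of its change with day (limma, 1 residual degree of freedom plus the prior), and that test is the basis of each entry here. The Ccl28 difference fell by 0.46 per day (adjusted p = 0.0454) and was -1.45 on day 5, and its other probe sets above the filter gave -0.01 and 0.10 per day. Ackr4 fell by 0.46 per day (adjusted p = 0.0454), with day 5 values of 142 in KO and 329 in L/L. Myb fell by 0.39 per day (adjusted p = 0.0404), and its other probe sets had day 5 differences of -0.89 and -1.82. Lyz2 rose by 0.43 per day (adjusted p = 0.0373). Ccl12 rose by 0.42 per day (adjusted p = 0.0480), with L/L pools of days 3 and 5 below the filter. Ccr1 rose by 0.42 per day (adjusted p = 0.0392). Cd68 rose by 0.35 per day (adjusted p = 0.0454), at 60.8 in KO and 31.7 in L/L on day 5, with L/L below the filter. Vcam1 rose by 0.34 per day (adjusted p = 0.0485), and its other probe sets had day 5 differences of 0.48 and 0.32.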

How the results depend on the processing

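Under every alternative run, limma called 0 of the members over the 3 days. At an unadjusted p under 0.05 there were 9 members without day 2, with 2262 of 13042 genes. Without day 3 there were 2 members, with 606 genes, and the other runs gave 3 or 4 members. All genes called over the 3 days numbered 3, against 1 with the mean of all probe sets, 0 with the next brightest probe set (1394 at an unadjusted p under 0.05) and 0 to 2 when a day was left out (0 without day 3, with 606 unadjusted). Genes called by the change with day numbered 160, against 0 without the intensity filter (2475 unadjusted), 275 with the filter at the 60th percentile, 550 with an offset of 32, 312 with arrays centred on the median, 531 with a trend in eBayes and 63 with day as a rank. Members called by it numbered 1, against 0 with the next brightest probe set, without the filter and with day as a rank, 2 with the offset and 3 with the trend. Of member values over the 3 days 148 of 150 kept their direction and side of the threshold, of those per day 106 of 120, and of single-day values 307 of 325 moved by less than the spread. Reversed were Cxcl9 without day 5 (0.17, in a range of -0.22 to 0.17), Cxcl12 per day with the mean of its probe sets (-0.046) or the next brightest (-0.016), Ccl2 per day with values raised to the threshold (-0.0013), the L/L day 3 minus day 2 value of Cxcl1 with the next brightest (0.00036), and Ccl28 with its dimmest probe set above the filter (0.16 over the 3 days and 0.096 per day). The causes were not tested. The fit already sets KO against L/L within each day, and without the day term it also called 3 genes and the adjusted p of Ccl2 was 0.630. No next brightest probe set above the filter exists for Cxcl10, Cxcl9, Ccl20 and Ccl2. Signal near the filter limits Ccl2, Ccl12 and the receptors.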
